A study of Homo sapiens with 15 samples.

Results

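The AKR1 family of aldo-keto reductases was followed in HepG2, a line grown from a human hepatocellular carcinoma, through its 8 listed members: AKR1A1, AKR1B1, AKR1B10, AKR1C1, AKR1C2, AKR1C3, AKR1C4 and AKR1D1. Each was found by its exact symbol among 57773 genes in every table, and 7 of the 8 were among the 12567 genes with enough reads to test. Cells were kept for 72 h with tris(2-chloroethyl) phosphate (TCEP) at 250 µM or 25 µM, with tris(2-chloroisopropyl) phosphate (TCIPP) at 25 µM or 2.5 µM, or with 0.1% DMSO alone as the control. The compounds are flame retardants of the chlorinated organophosphate class, whose ester arms are branched chloroisopropyl groups in TCIPP and chloroethyl groups in TCEP. Each of the 5 groups had 3 libraries of poly(A) RNA, and per the labels each came from its own seeding, treatment and RNA extraction. No group carried a genetic change, and all cells belonged to the same line, so p-values measure the spread between cultures of that line. The family was chosen because of its measured values: earlier results of these libraries showed AKR1B10, AKR1C1 and AKR1C2 below DMSO at 25 µM TCEP and 2.5 µM TCIPP. The values of those low-concentration contrasts are therefore a description, with no test. The other comparisons use some of the same DMSO or low-concentration libraries, so they are not independent of that choice.

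Aldo-keto reductases use NADPH to turn aldehydes and ketones into alcohols, on substrates as different as glucose, retinal, lipid peroxidation products and steroids. Several of their genes are known targets of NRF2, the transcription factor of the antioxidant response, and liver-derived tumour cells often hold high levels of AKR1B10 and the AKR1C enzymes. AKR1C1 inactivates progesterone, AKR1C2 inactivates dihydrotestosterone, AKR1C3 forms testosterone and prostaglandin F, and AKR1C4 is a liver enzyme that reduces steroids and bile acid intermediates. AKR1B1 is aldose reductase, which makes sorbitol from glucose, and AKR1B10 is its close relative that reduces retinal. AKR1A1 is the general aldehyde reductase, and AKR1D1 reduces the steroid ring in bile acid synthesis.

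The AKR1C genes lie beside each other on chromosome 10, and their coding sequences are so alike that short reads cannot always be placed. In GRCh37, the build of the tables, AKR1C1 (ENSG00000187134) spans chr10:4934796-5025475, AKR1C2 (ENSG00000151632) chr10:5029967-5060223, AKR1C3 (ENSG00000196139) chr10:5077546-5149878 and AKR1C4 (ENSG00000198610) chr10:5237425-5260912. AKR1B1 (ENSG00000085662, chr7:134127102-134144036) and AKR1B10 (ENSG00000198074, chr7:134212344-134226160) are neighbours on chromosome 7. AKR1D1 (ENSG00000122787, chr7:137687070-137802732) stands further along that chromosome, and AKR1A1 (ENSG00000117448) lies at chr1:46016215-46035721. In the GENCODE coding sequences of 969 bases, AKR1C1 and AKR1C2 were identical at 950 bases (98.04%) and differed at 19, with an identical run of 186 bases. AKR1C1 shared 91.66% with AKR1C3, 88.99% with AKR1C4 and 64.61% with AKR1D1, and AKR1B1 shared 76.40% with AKR1B10. The stretch from coding base 73 to base 162, counted from 1 at the start codon of the gene's plus-strand or minus-strand transcript in GRCh37, is shown because it holds 10 of the 19 AKR1C2 differences. Capitals mark bases that differ from AKR1C1, and AKR1C3 has 11 and AKR1C4 has 13 of them.
AKR1C1: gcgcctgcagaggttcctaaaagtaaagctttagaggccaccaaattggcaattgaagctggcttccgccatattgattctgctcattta
AKR1C2: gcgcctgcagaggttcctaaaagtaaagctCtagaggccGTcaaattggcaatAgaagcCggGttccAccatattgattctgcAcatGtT
AKR1C3: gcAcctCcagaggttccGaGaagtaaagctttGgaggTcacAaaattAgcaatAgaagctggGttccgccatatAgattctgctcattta
AKR1C4: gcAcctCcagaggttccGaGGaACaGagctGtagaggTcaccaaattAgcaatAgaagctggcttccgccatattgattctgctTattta
These changes, such as A112G and C113T, are what places a read on AKR1C2 and not on AKR1C1, with the AKR1C1 base first. Outside such stretches a read of 50 bases can fit both genes.

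That overlap showed in the read counts. Of all windows of 50 coding bases, 53.7% in AKR1C1 and 57.07% in AKR1C2 occurred unchanged in another member, against 23.04% in AKR1C3, 12.17% in AKR1C4 and 0% in AKR1A1, AKR1B1, AKR1B10 and AKR1D1. Over the 15 libraries, 72.2% of AKR1C1 exon reads and 62.0% of AKR1C2 exon reads were unique, meaning placed at a single site. The unique share was 90.1% for AKR1C3, 90.6% for AKR1C4, 98.1% for AKR1B10, 99.9% for AKR1B1 and 100% for AKR1A1 and AKR1D1. The total reads of AKR1C1 and AKR1C2 are therefore uncertain in their split, and unique reads are given beside them.

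**Figure D1:**
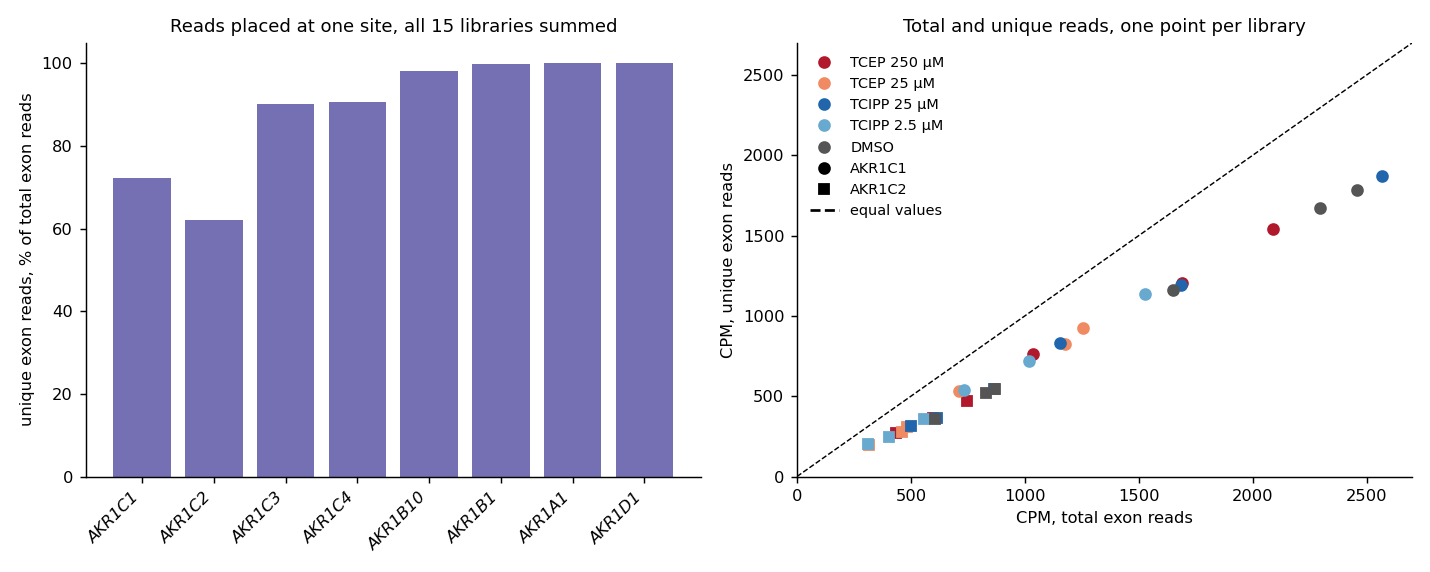
Unique exon reads as a percent of total exon reads for the 8 members, summed over 15 libraries (left, bars), and unique against total CPM of AKR1C1 (circles) and AKR1C2 (squares), with 1 point per library coloured by group (right). AKR1C2 had the lowest unique share, 62.0%, and the points of both genes lie below the dashed line of equal values.

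The start regions of the same pair are also nearly the same. In the RefSeq windows of 250 bases before to 50 bases after the start (GRCh38.p14), AKR1C1 and AKR1C2 had 288 identical bases, 4 mismatches and 16 gap positions (93.51% identity). The 250 bases before each start are shown because these 2 genes had the highest correlation of all member pairs, with capitals for bases that the alignment did not pair with an identical base. AKR1C1 is read from the plus strand at chr10:4963165-4963414 and AKR1C2 from the minus strand at chr10:5003858-5004107.
AKR1C1: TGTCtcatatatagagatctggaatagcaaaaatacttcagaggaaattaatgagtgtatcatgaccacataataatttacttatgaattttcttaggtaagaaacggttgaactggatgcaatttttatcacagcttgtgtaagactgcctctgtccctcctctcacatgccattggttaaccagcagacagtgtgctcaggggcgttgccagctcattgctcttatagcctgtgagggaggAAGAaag
AKR1C2: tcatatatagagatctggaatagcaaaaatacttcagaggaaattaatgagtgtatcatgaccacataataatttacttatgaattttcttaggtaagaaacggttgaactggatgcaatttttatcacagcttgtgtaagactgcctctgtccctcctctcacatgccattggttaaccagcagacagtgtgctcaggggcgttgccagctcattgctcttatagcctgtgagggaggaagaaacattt
The core letters of the antioxidant response element, TGACNNNGC on either strand, were in none of the 9 windows of the 7 members with an entry and in 13.35% of 35116 promoter windows. TATAAA on either strand was in 1 of 2 windows of AKR1C3 and in that of AKR1C4, and in 11.53% of all windows. These are letter matches in short windows only.

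The libraries held 5353963 to 26771751 exon reads (median 8890426), and 86.3% to 87.0% of them were unique. A count of 3 reads was worth 0.111 to 0.564 CPM (counts scaled to library size with TMM), and reads carried no molecular identifiers, so this covers counting error only. All 11 hepatocyte markers, among them ALB and APOA1, were found in every group, at a summed 43000 to 54800 CPM. Of 12 markers of blood, stromal and endothelial cells, 11 were found. They summed to 67.2 to 91.0 CPM over the treated libraries (77.0 to 84.8 at 25 µM TCEP, 77.5 to 91.0 at 2.5 µM TCIPP) and 76.4 to 78.2 in DMSO. Between 2 and 4 of them were at 0 in all libraries of a group, COL1A2 in every library and PTPRC, CD3E and COL3A1 in 14 of 15. In the 6 that were tested, the median log2 fold change was 0.37 at 25 µM TCEP and 0.52 at 2.5 µM TCIPP against DMSO and -0.30 for high against low concentrations. Of these 6, 2 had a negative log2 fold change at each low concentration. CD68 (5.39% unique reads) averaged 37.3 and 39.9 CPM in those low-concentration groups and 28.7 CPM in DMSO, and overlapped DMSO in both. PDGFRB (100% unique reads) went the other way, at 14.23 and 15.75 CPM against 20.29 CPM in DMSO. ACTA2 was also lower, at 22.33 and 21.46 CPM against 23.74 CPM. The part of these genes in the AKR1 values was not tested.

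Per exon length, AKR1B10 and AKR1C1 were the most abundant members. In the deposited RPKM, AKR1B10 stood at 241.7 ± 48.6, AKR1C1 at 205.7 ± 39.9, AKR1C2 at 114.8 ± 20.4 and AKR1C3 at 79.6 ± 4.08 in DMSO (SD, n = 3). AKR1B1 and AKR1A1 followed at 19.1 ± 2.18 and 16.97 ± 1.31 RPKM, AKR1D1 at 2.14 ± 0.113 and AKR1C4 at 0.218 ± 0.123. The leading 4 kept this order of mean RPKM in all 5 groups, although the ranges of AKR1B10 and AKR1C1 overlapped in DMSO. The exon length behind AKR1C1 was 9423 bases, against 1744 for AKR1B10, so the RPKM of AKR1C1 depends on how much of that model the cells use. The 8 genes together took 0.161% to 0.450% of all exon reads of a library, and AKR1C1 alone made up 43.4% to 56.7% of the family's CPM.

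AKR1C4 was at the edge of detection. It had between 1 and 16 exon reads per library, and its group means were 0.41 CPM at 250 µM TCEP, 0.63 at 25 µM TCEP, 0.54 at 25 µM TCIPP, 0.56 at 2.5 µM TCIPP and 0.46 in DMSO. It did not pass the read filter, and a difference between groups was not detectable at this depth.

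AKR1C1 had 2087, 1037 and 1691 CPM at 250 µM TCEP and 1253, 710.0 and 1178 CPM at 25 µM TCEP. At 25 µM TCIPP it had 2565, 1156 and 1684 CPM, at 2.5 µM TCIPP 1527, 735 and 1017 CPM, and in DMSO 2296, 1651 and 2455 CPM. Both low-concentration groups lay below all DMSO libraries, and both high-concentration groups overlapped DMSO. AKR1C2 had 746, 435 and 597 CPM at 250 µM TCEP, 481, 314 and 459 at 25 µM TCEP, 864.0, 499 and 614 at 25 µM TCIPP, 558, 311.5 and 402.5 at 2.5 µM TCIPP and 830.5, 608 and 869.6 in DMSO. It followed the same order as AKR1C1, with both low-concentration groups under every DMSO library. AKR1C3 had 417, 299.7 and 361 CPM at 250 µM TCEP, 337, 261 and 315 at 25 µM TCEP, 400.3, 308 and 359 at 25 µM TCIPP, 345, 265 and 301 at 2.5 µM TCIPP and 384.5, 387 and 419 in DMSO. Its low-concentration groups were again clear of DMSO, but over a narrower span.

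Of the aldose reductase branch, AKR1B10 had 463, 317 and 376 CPM at 250 µM TCEP, 314, 245 and 299 at 25 µM TCEP, 552, 357 and 406 at 25 µM TCIPP, 351, 248 and 297 at 2.5 µM TCIPP and 539, 354 and 499.6 in DMSO. The highest library at 2.5 µM TCIPP (351.1) was just under the lowest DMSO library (354.2), and with unique reads these groups overlapped (345.2 and 343.8 CPM). AKR1B1 had 68.0, 50.1 and 60.7 CPM at 250 µM TCEP, 52.0, 45.6 and 53.0 at 25 µM TCEP, 84.1, 53.8 and 62.3 at 25 µM TCIPP, 59.9, 49.9 and 57.1 at 2.5 µM TCIPP and 76.1, 68.6 and 86.4 in DMSO. For AKR1B1, 25 µM TCIPP was the only treated group that overlapped DMSO. AKR1C1, AKR1C2, AKR1B10 and AKR1B1 shared 1 order of group means, with DMSO highest, then 25 µM TCIPP, 250 µM TCEP, 2.5 µM TCIPP and 25 µM TCEP. Neighbouring groups in that order overlapped in each of the 4 genes.

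AKR1A1 and AKR1D1 did not share that pattern. AKR1A1 had 60.5, 52.4 and 54.2 CPM at 250 µM TCEP, 56.4, 50.1 and 52.1 at 25 µM TCEP, 55.7, 50.8 and 53.1 at 25 µM TCIPP, 58.3, 50.2 and 55.0 at 2.5 µM TCIPP and 59.2, 53.1 and 62.5 in DMSO. Each treated group of AKR1A1 overlapped DMSO. AKR1D1 had 7.92, 11.4 and 7.57 CPM at 250 µM TCEP, 8.19, 8.66 and 8.81 at 25 µM TCEP, 5.09, 10.9 and 7.21 at 25 µM TCIPP, 6.76, 10.4 and 8.09 at 2.5 µM TCIPP and 7.68, 7.30 and 6.83 in DMSO. Only the 25 µM TCEP libraries of AKR1D1 were clear of DMSO, and they were above it.

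**Figure D2:**
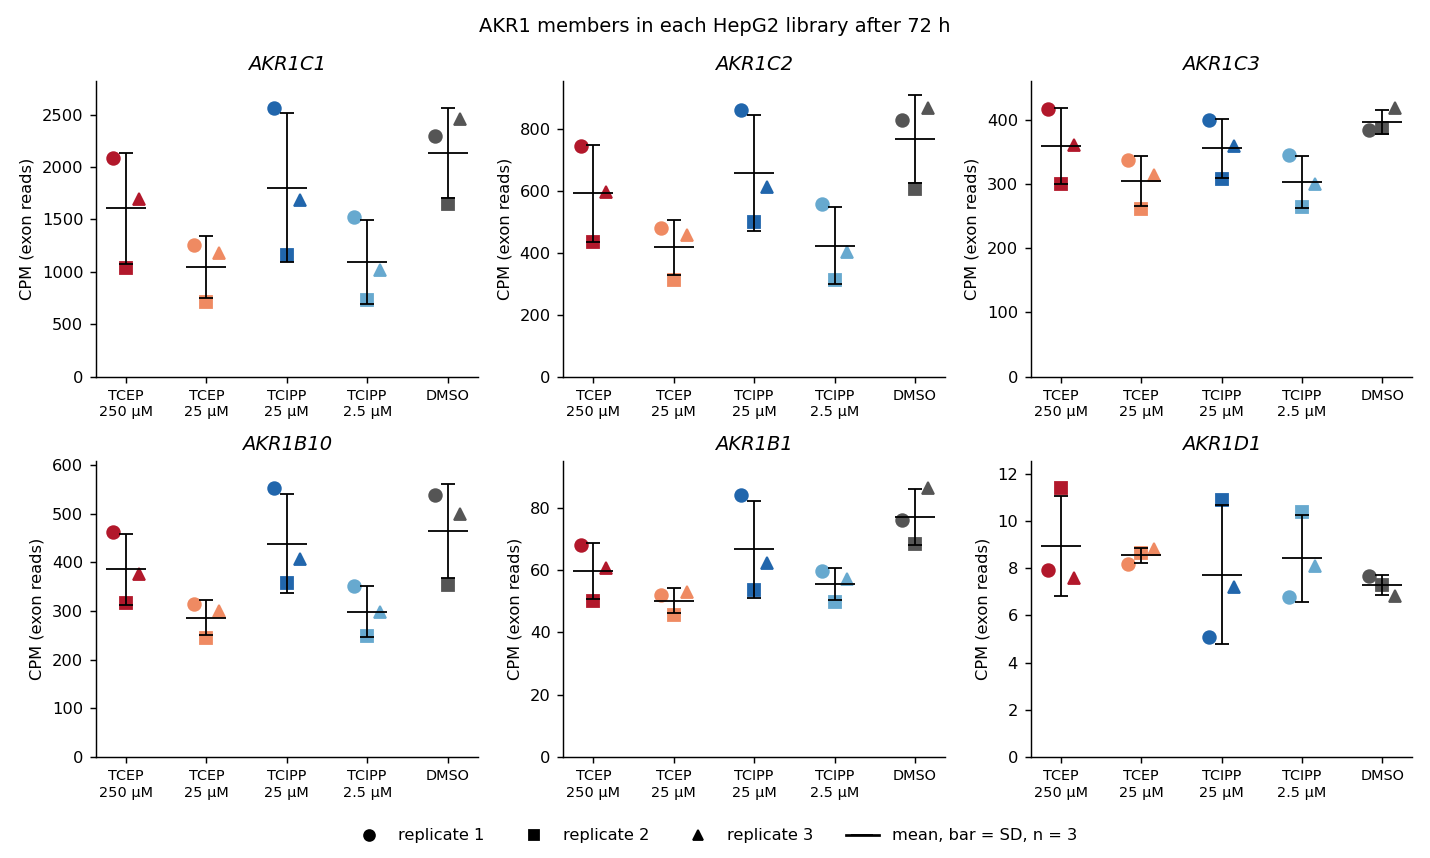
CPM of total exon reads of 6 members (y axis, from 0) in each library by group (x axis). Symbols give the replicate number, horizontal lines the mean and bars the SD (n = 3); AKR1C1 lay at 710.0 to 1253 CPM at 25 µM TCEP, 735 to 1527 at 2.5 µM TCIPP and 1651 to 2455 in DMSO.

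The replicate number moved with the level inside the groups. Replicate 2 was the lowest library of its group in 5 of 5 groups for AKR1A1, AKR1B1, AKR1B10, AKR1C1 and AKR1C2, in 4 of 5 for AKR1C3 and in 0 of 5 for AKR1D1. The replicate 2 libraries held 5353963 to 9049712 exon reads and gave 0.161% to 0.315% of them to the family, and the other libraries gave 0.215% to 0.450%. Over the whole table, libraries with the same number deviated together between treated groups (r of 0.13 to 0.337 over 18 pairs) and less evenly between treated groups and DMSO (0.0164 to 0.158 over 12 pairs). The number was therefore used as a block for comparisons among treated groups.

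Against DMSO, the low concentrations gave the lowest values, which is what the family was chosen on. At 25 µM TCEP, AKR1C1 averaged 1047 ± 294 CPM and in DMSO 2134 ± 426 (SD, n = 3 each), a log2 fold change of -1.03 ± 0.307 (SE). The others stood at -0.88 ± 0.237 for AKR1C2, -0.70 ± 0.18 for AKR1B10, -0.62 ± 0.139 for AKR1B1, -0.38 ± 0.125 for AKR1C3, -0.15 ± 0.0834 for AKR1A1 and 0.25 ± 0.213 for AKR1D1. At 2.5 µM TCIPP, AKR1C1 averaged 1093 ± 401.5 CPM, a log2 fold change of -0.97 ± 0.307. The others stood at -0.86 ± 0.237 for AKR1C2, -0.64 ± 0.18 for AKR1B10, -0.47 ± 0.139 for AKR1B1, -0.39 ± 0.125 for AKR1C3, -0.10 ± 0.0838 for AKR1A1 and 0.21 ± 0.215 for AKR1D1. In each of these comparisons 5 of 7 members lay below DMSO without overlap, where 11.3% of all genes tested did so at 25 µM TCEP and 7.94% at 2.5 µM TCIPP. AKR1D1 was above DMSO without overlap at 25 µM TCEP, as were 11.4% of all genes. The genes called at an adjusted p under 0.05 made up 0% at 25 µM TCEP and 0.0955% at 2.5 µM TCIPP. Nothing is read from the members' calls there. With unique reads AKR1C1 was at -1.01 and -0.95, and AKR1C2 at -0.86 and -0.83, for 25 µM TCEP and 2.5 µM TCIPP. The log2 differences between same-numbered libraries of the 5 members without overlap were negative in 3 of 3 numbers for both compounds. That follows from the lack of overlap and adds no further support.

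At 250 µM TCEP no member passed the test against DMSO, with 6 of 7 members below DMSO in the fit. AKR1B1, aldose reductase, was the member with the smallest p: it averaged 59.6 ± 9.01 CPM and 77.0 ± 8.94 CPM in DMSO, a log2 fold change of -0.37 (95% interval -0.67 to -0.08, edgeR adjusted p = 0.895). It was also the only member below DMSO without overlap, as were 5.37% of all genes tested, and with an unadjusted p under 0.05 (1 of 7 members, 5.20% of all genes). AKR1C1 was at -0.41 (-1.05 to 0.23), AKR1C2 at -0.38 (-0.87 to 0.12), AKR1B10 at -0.27 (-0.65 to 0.11) and AKR1C3 at -0.14 (-0.41 to 0.12). AKR1D1 was the member above DMSO, at 0.28 (-0.18 to 0.73), against 0.25 at 25 µM TCEP. Differences between same-numbered libraries were negative in 3 of 3 numbers for AKR1B1, AKR1B10, AKR1C1 and AKR1C2, and in 2 for AKR1C3 and AKR1A1. Single libraries moved these values: AKR1C1 was at -0.64 without TCEP 250 µM replicate 1 and -0.18 without replicate 2, AKR1C2 at -0.57 and -0.20, and AKR1C3 at -0.26 and -0.03 in the same order. AKR1B10 was at -0.43 without DMSO replicate 2 and -0.15 without TCEP 250 µM replicate 2, and AKR1D1 at 0.10 without TCEP 250 µM replicate 2. edgeR's quasi-likelihood test called 0% of all genes and 0 members here, and DESeq2 and limma-voom also called 0 members. With the replicate number as a block, not taken to pair treated and DMSO libraries, edgeR called 0 members too. The block intervals were -0.69 to -0.23 for AKR1C1, -0.58 to -0.22 for AKR1C2, -0.57 to -0.20 for AKR1B1 and -0.41 to -0.13 for AKR1B10. That of AKR1C3 was -0.31 to -0.01, and those of AKR1A1 and AKR1D1 crossed 0.

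At 25 µM TCIPP no member was clear of DMSO in either direction, where 4.30% of all genes were lower and 4.77% higher without overlap. AKR1C1 averaged 1802 ± 712 CPM and 2134 ± 426 CPM in DMSO, a log2 fold change of -0.24 (95% interval -0.89 to 0.40). AKR1C2 was at -0.22 (-0.72 to 0.27), AKR1B1 at -0.20 (-0.50 to 0.09), AKR1C3 at -0.16 (-0.42 to 0.11) and AKR1B10 at -0.08 (-0.46 to 0.30). The intervals of AKR1C1 and AKR1C2 in this unblocked fit reach from a marked decrease to an increase, so they do not show that levels were equal. With the block, not taken to pair treated and DMSO libraries, they were -0.53 to -0.08 and -0.43 to -0.07. Those of AKR1B1 and AKR1C3 were -0.41 to -0.03 and -0.32 to -0.02, that of AKR1B10 crossed 0, and 0 members were called. Same-numbered differences were negative in 2 of 3 numbers for AKR1C1, AKR1C2, AKR1B1 and AKR1C3. The count called was 0 of 7 members with edgeR, DESeq2 and limma-voom, and edgeR called 0.00796% of all genes. At an unadjusted p under 0.05 it was 0 of 7 members and 6.36% of all genes. Without TCIPP 25 µM replicate 1 AKR1C1 was at -0.59, AKR1C2 at -0.47, AKR1B1 at -0.41 and AKR1C3 at -0.25, and without replicate 2 these stood at -0.01, -0.06, -0.08 and -0.06.

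**Figure D3:**
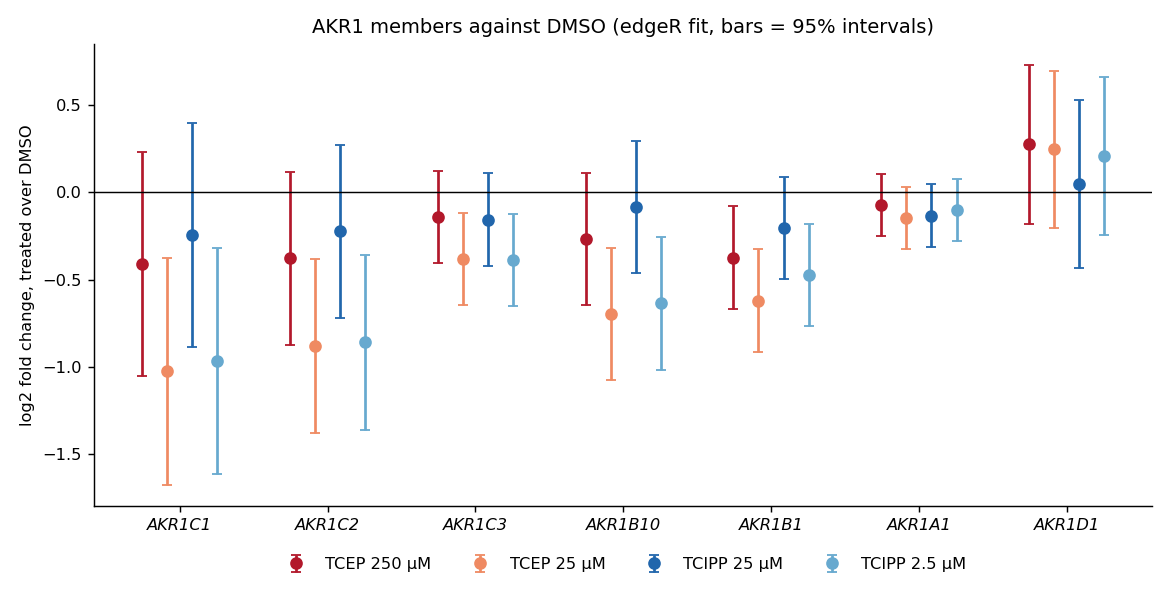
Log2 fold change of 7 members (x axis) for each treated group over DMSO (y axis), points with 95% intervals from the edgeR fit. The points of 25 µM TCEP and 2.5 µM TCIPP are lowest for AKR1C1 (-1.03 and -0.97), and the intervals of 25 µM TCIPP cross 0 for all members shown.

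The step between concentrations set the high against the low concentration of a compound. This and the next 3 comparisons use the low-concentration libraries on which the family was chosen, so their p-values for members are given as output of the fit and are no independent evidence of a difference. All 7 tested members were higher at 250 µM than at 25 µM TCEP in the fit, by a median log2 fold change of 0.25, against 0.00 over all genes tested. AKR1D1 (0.03, 95% interval -0.42 to 0.47) and AKR1A1 (0.07, -0.10 to 0.25) were near 0. AKR1D1 was lower at 250 µM in 2 of 3 same-numbered pairs. AKR1C1 averaged 1605 ± 530.4 CPM at 250 µM and 1047 ± 294 CPM at 25 µM, a log2 fold change of 0.62 (95% interval -0.03 to 1.26, edgeR adjusted p = 0.695). With the replicate number as a block it was at 0.60 (0.37 to 0.83, adjusted p = 0.0104). AKR1C2 was at 0.50 (adjusted p = 0.691) and 0.49 with the block (0.31 to 0.67, adjusted p = 0.00855). AKR1B10 was at 0.43 (adjusted p = 0.680) and 0.42 with the block (0.28 to 0.56, adjusted p = 0.00551); it was the only member higher without overlap, as were 7.40% of all genes. Without the block edgeR called 0 members and 0% of all genes, with 2 members and 7.16% of all genes at an unadjusted p under 0.05, and DESeq2 and limma-voom called 0 members. With it edgeR called 3 of 7 members and 1.47% of all genes. That block fit includes the DMSO libraries, whose numbers were not taken as paired. A block over the 12 treated libraries alone, added after the data were seen, called 4 of 7 members and 4.44% of all genes, with AKR1C3 (0.23, edgeR adjusted p = 0.00195, against 0.123 in the block over all libraries) as the further call. Without the block and without TCEP 250 µM replicate 1, AKR1C1 was at 0.38, AKR1C2 at 0.31 and AKR1B10 at 0.28.

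Between 25 µM and 2.5 µM TCIPP, AKR1C1, AKR1C2 and AKR1B10 were again called with the block and not without it, and the libraries of AKR1C1 and AKR1C2 overlapped between these groups. AKR1C1 averaged 1802 ± 712 CPM at 25 µM and 1093 ± 401.5 CPM at 2.5 µM, a log2 fold change of 0.72 (0.08 to 1.37, edgeR adjusted p = 0.405). With the block it was at 0.71 (0.49 to 0.94, adjusted p = 0.00133). AKR1C2 was at 0.64 (adjusted p = 0.344) and 0.64 with the block (adjusted p = 0.000538). AKR1B10 was at 0.56 (adjusted p = 0.279) and 0.55 with the block (adjusted p = 0.000306); it alone was higher without overlap, as were 5.84% of all genes. AKR1C3 was at 0.23 in both fits (adjusted p = 0.0847 with the block), and AKR1B1 at 0.27 and 0.26 (0.141). Without the block edgeR called 0 members and 0% of all genes, with 3 members and 10.8% of all genes at an unadjusted p under 0.05, and DESeq2 and limma-voom called 0 members. With it 3 of 7 members and 3.85% of all genes were called. The block over the 12 treated libraries called 4 of 7 members and 7.58% of all genes, AKR1C3 being the further call (edgeR adjusted p = 0.00152). Without the block and without TCIPP 25 µM replicate 1, AKR1C1 was at 0.38, AKR1C2 at 0.39, AKR1B10 at 0.35 and AKR1B1 at 0.06. The TCIPP step minus the TCEP step was 0.11 ± 0.431 for AKR1C1, 0.13 ± 0.334 for AKR1C2 and 0.13 ± 0.255 for AKR1B10 on the log2 scale (SE), with an edgeR adjusted p of 1 for all 7 members. These errors are too wide to show that the steps were alike.

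TCIPP and TCEP were both used at 25 µM, which was the high concentration of TCIPP and the low concentration of TCEP. At this matched concentration 4 members were called as higher with TCIPP once the replicate number was a block, and 0 without it. AKR1C1 averaged 1802 ± 712 CPM with TCIPP and 1047 ± 294 CPM with TCEP, a log2 fold change of 0.78 (0.14 to 1.43, edgeR adjusted p = 0.192) and of 0.76 with the block (0.53 to 0.98, adjusted p = 0.000766). AKR1C2 was at 0.66 (adjusted p = 0.162; 0.65 and 0.000400 with the block). AKR1B10 was at 0.62 (adjusted p = 0.110; 0.60 and 9.17e-05 with the block), and AKR1B1 at 0.42 (0.145; 0.41 and 0.0134 with the block). AKR1C3 was at 0.23 with an adjusted p of 0.350, and 0.0556 with the block. AKR1A1 differed by 0.01 (-0.17 to 0.19) and AKR1D1 by -0.20 (-0.67 to 0.27), and neither passed the test. AKR1B1, AKR1B10 and AKR1C2 were higher without overlap, 3 of 7 members, against 10.4% of all genes. Without the block edgeR called 0 members and 0.0398% of all genes, with 4 members and 18.1% of all genes at an unadjusted p under 0.05, and DESeq2 and limma-voom called 0 members. With it, 4 of 7 members and 8.75% of all genes were called. The block over the 12 treated libraries called 5 of 7 members and 16.8% of all genes, AKR1C3 being the further call (edgeR adjusted p = 0.00113). Without the block and without TCIPP 25 µM replicate 1, AKR1C1 was at 0.44, AKR1C2 at 0.41 and AKR1B1 at 0.21.

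**Figure D4:**
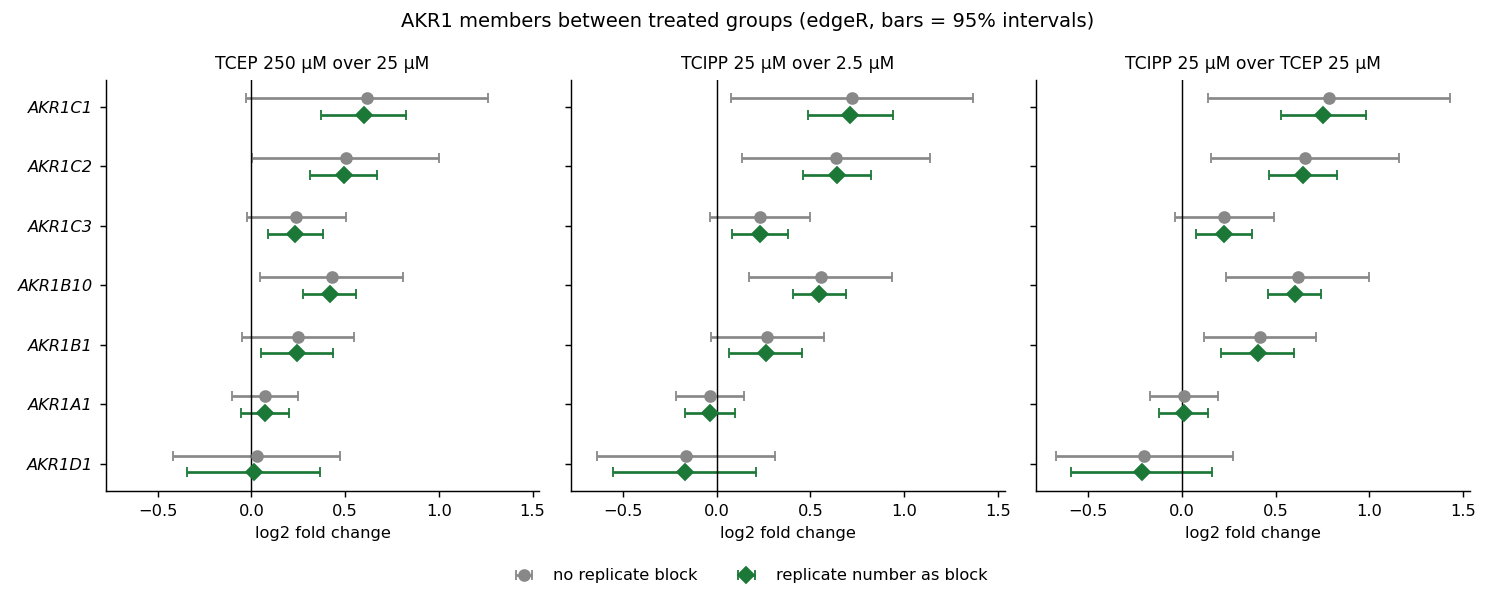
Log2 fold change (x axis) of 7 members between treated groups, without (grey circles) and with (green diamonds) the replicate number as a block, bars being 95% intervals of the edgeR fits. The estimates of AKR1C1 differ little between the fits (0.78 and 0.76 for TCIPP over TCEP at 25 µM), while the blocked intervals are narrower.

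Joined over both compounds, AKR1B10 differed by a log2 fold change of 0.49 between the 6 high-concentration and the 6 low-concentration libraries (0.22 to 0.76, edgeR adjusted p = 0.0639). AKR1C1 was at 0.67 (0.136), AKR1C2 at 0.57 (0.103), AKR1B1 at 0.26 (0.208) and AKR1C3 at 0.24 (0.197), where the values in brackets are edgeR adjusted p. The fit called 0 of 7 members and 1.09% of all genes, with 5 members and 16.3% of all genes at an unadjusted p under 0.05, and DESeq2 and limma-voom called 0 members. With the block those 5 members were called, at adjusted p of 1.13e-05 for AKR1B10, 2.36e-05 for AKR1C2, 5.19e-05 for AKR1C1, 0.00683 for AKR1C3 and 0.0231 for AKR1B1, and 8.78% of all genes were called. AKR1A1 was at 0.02 and AKR1D1 at -0.07, with adjusted p of 0.913 and 0.879.

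Reads in introns, which were not among the values that chose the family, are a second readout of the same libraries. They are total intron reads, which include reads placed at several sites, and unique intron reads are not given here. AKR1C1 had 65.0, 33.1 and 71.0 intron CPM at 25 µM TCEP, 75.1, 28.0 and 59.0 at 2.5 µM TCIPP, and 159.0, 115.6 and 159.3 in DMSO. AKR1B10 had 17.4, 12.6 and 16.2 at 25 µM TCEP, 14.4, 11.2 and 16.6 at 2.5 µM TCIPP, and 37.7, 23.0 and 32.2 in DMSO. The low-concentration groups were clear of DMSO for both genes, and for AKR1C2 and AKR1C3 as well, 4 of 7 members, where 16.9% of all genes tested had lower intron reads without overlap at 25 µM TCEP and 15.1% at 2.5 µM TCIPP. AKR1A1, AKR1B1 and AKR1D1 overlapped DMSO at both. Their log2 ratios at 25 µM TCEP and 2.5 µM TCIPP were -0.07 and -0.48 for AKR1A1, -1.48 and -0.75 for AKR1B1 and 0.71 and 0.05 for AKR1D1. At 25 µM TCEP and in DMSO, AKR1B1 had only 4 to 50 intron reads per library and AKR1D1 8 to 33. The log2 ratio of mean intron reads to DMSO was -1.36 and -1.42 for AKR1C1, -1.20 and -1.24 for AKR1C2, -1.01 and -1.14 for AKR1B10 and -0.63 and -0.80 for AKR1C3, at 25 µM TCEP and 2.5 µM TCIPP. At both high concentrations the intron reads of all 7 genes overlapped DMSO, where 10.8% of all genes were lower without overlap at 250 µM TCEP and 3.90% at 25 µM TCIPP. These are described without a test, since they come from the same libraries and contrasts. Intron reads made up 7.82% to 9.56% of gene reads of a library, with 8.05% to 8.59% at 25 µM TCEP, 7.82% to 8.67% at 2.5 µM TCIPP and 8.68% to 9.10% in DMSO. The part of this share in the intron values was not tested.

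**Figure D5:**
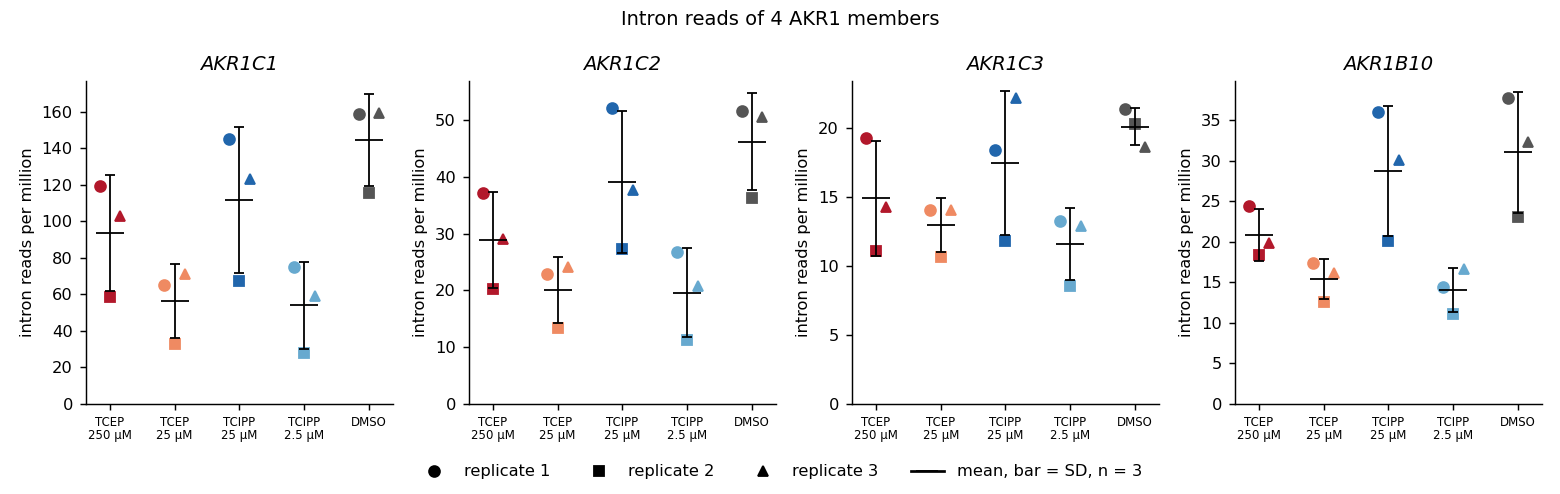
Intron CPM (total intron reads scaled to library size, y axis, from 0) of AKR1C1, AKR1C2, AKR1C3 and AKR1B10 in each library by group (x axis), with replicate symbols, means and SD (n = 3). AKR1C1 averaged 56.4 at 25 µM TCEP, 54.1 at 2.5 µM TCIPP and 144.7 in DMSO.

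The members varied together across libraries. Over the 15 libraries, the Pearson r of log2 CPM was 0.995 for AKR1C1 and AKR1C2 (0.994 with unique reads), 0.977 for AKR1B10 and AKR1C2, 0.973 for AKR1C1 and AKR1C3 and 0.935 for AKR1B1 and AKR1C1. Taken as deviations from the group means, the same pairs had r of 0.994, 0.959, 0.956 and 0.925, so they also varied together inside groups. AKR1D1 ran against the others, with r between -0.757 and -0.559. These values share libraries, depth and, for the AKR1C genes, reads. The ratio of AKR1C1 to AKR1C2 in unique reads was 3.12 ± 0.273 at 250 µM TCEP, 2.90 ± 0.191 at 25 µM TCEP, 3.12 ± 0.414 at 25 µM TCIPP, 2.94 ± 0.224 at 2.5 µM TCIPP and 3.23 ± 0.0462 in DMSO (SD, n = 3).

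Among 8812 other genes with a mean of at least 10 CPM, those most like the mean log2 CPM of AKR1B10, AKR1C1, AKR1C2 and AKR1C3 over 15 libraries were FCGBP (Pearson r = 0.986), GPX2 (0.985, 11.7% unique reads), IKBKAP (0.985), PEBP1 (0.982) and MXD4 (0.98). GPX2, a glutathione peroxidase, averaged 286.5 CPM at 250 µM TCEP, 199 at 25 µM TCEP, 338 at 25 µM TCIPP, 222 at 2.5 µM TCIPP and 367 in DMSO. The most opposed were HAL, the histidine-degrading lyase (-0.988), NEDD4L, a ubiquitin ligase (-0.982), and LPCAT1, a phospholipid acyltransferase (-0.979). HAL averaged 15.7 CPM at 250 µM TCEP, 23.6 at 25 µM TCEP, 14.7 at 25 µM TCIPP, 22.4 at 2.5 µM TCIPP and 11.4 in DMSO.

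Of 34 listed NRF2 targets outside the family, 32 were tested, and in the joined comparison of high against low concentrations 2 rose and 1 fell. The list median was a log2 fold change of 0.13 and that of all genes 0.00. SLC7A11, the cystine carrier (21.2% unique reads), averaged 146 ± 28 CPM at the high concentrations and 100.1 ± 15.6 at the low ones (SD, n = 6 each, log2 fold change 0.54, edgeR adjusted p = 0.0403). IDH1, an NADPH-forming dehydrogenase, averaged 645 ± 29.9 CPM at the high and 528 ± 29 CPM at the low concentrations (0.29, edgeR adjusted p = 0.0412). HMOX1, heme oxygenase, was the target that fell, at 31.9 ± 3.23 CPM at the high and 44.5 ± 5.93 CPM at the low concentrations (-0.48, edgeR adjusted p = 0.0156). With the replicate block HMOX1 fell and 13 rose, among them GCLM, a subunit of the glutathione synthesis enzyme (0.36, edgeR adjusted p = 0.000878). The block called 3 rises and 1 fall in the TCEP step, 8 and 1 in the TCIPP step and 11 and 1 for TCIPP over TCEP at 25 µM, where the unblocked edgeR test called 0. HMOX1 was the fall in each. Of all genes the block called 1.47%, 3.85% and 8.75% in these 3 comparisons, and 8.78% for high against low. The unblocked counts of DESeq2 in these 3 comparisons were 0, then 3 rises, then 6 rises and 1 fall, and limma-voom called 0. Those with an unadjusted p under 0.05 were 9, 12 and 14 of 32 in the same order, where 7.16%, 10.8% and 18.1% of all genes did so.

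Against DMSO, the NRF2 list median was -0.01 at 250 µM TCEP, -0.10 at 25 µM TCEP, 0.06 at 25 µM TCIPP and -0.12 at 2.5 µM TCIPP, and edgeR called 0 of 32 in each. The counts at an unadjusted p under 0.05 were 2, 13, 3 and 8 in that order, where 5.20%, 15.2%, 6.36% and 13.9% of all genes did so. With the block, not taken to pair treated and DMSO libraries, edgeR called 1 rise and 9 falls at 25 µM TCEP. It called 1 rise and 5 falls at 2.5 µM TCIPP and 0 at the high concentrations. Over the whole table that block fit called 1037 genes at 25 µM TCEP and 941 at 2.5 µM TCIPP. DESeq2 called 1 rise and 4 falls at 25 µM TCEP, 1 rise at 2.5 µM TCIPP and 0 at the high concentrations, and limma-voom called 1 rise at 2.5 µM TCIPP and 0 elsewhere. The shares of all genes that DESeq2 and limma-voom called are not given here, for this or the other lists. GPX2, a glutathione peroxidase with 11.7% unique reads, stood at a log2 fold change of -0.88 ± 0.208 at 25 µM TCEP and -0.73 ± 0.208 at 2.5 µM TCIPP (SE). HMOX1 stood at 0.42 ± 0.116 at 25 µM TCEP and 0.54 ± 0.116 at 2.5 µM TCIPP, opposite in sign to AKR1B10, AKR1C1 and AKR1C2. NQO1, the quinone reductase, averaged 789.7 CPM at 250 µM TCEP, 696 at 25 µM TCEP, 773 at 25 µM TCIPP, 683 at 2.5 µM TCIPP and 818 in DMSO.

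Of 10 listed further aldo-keto reductases and their beta subunit relatives, 9 were found and 3 tested, and the unblocked edgeR, DESeq2 and limma-voom tests called 0 in all 8 comparisons, with 0 or 1 at an unadjusted p under 0.05. AKR1B15, the closest listed relative of AKR1B10, averaged 4.38 CPM at 250 µM TCEP, 2.91 at 25 µM TCEP, 5.21 at 25 µM TCIPP, 3.27 at 2.5 µM TCIPP and 4.73 in DMSO. Its log2 fold change for high against low was 0.63 (edgeR adjusted p = 0.195), and with the block it rose by 0.64 (edgeR adjusted p = 0.0344). AKR7A2, a reductase of aflatoxin aldehydes, stayed between 31.1 and 33.7 CPM in group mean.

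Of 34 steroid and bile acid enzymes 21 were tested, and the unblocked edgeR test called 0 in all 8 comparisons. Between 1 and 7 had an unadjusted p under 0.05, where 5.20% to 18.1% of all genes did so. DESeq2 and limma-voom each called 1 fall for high against low and 0 elsewhere. BAAT, which conjugates bile acids, averaged 3.39 ± 1.65 CPM at the high concentrations and 5.81 ± 1.52 CPM at the low ones (log2 fold change -0.87, edgeR adjusted p = 0.0514), and it fell with the block (-0.87, edgeR adjusted p = 0.00252). The block called 2 rises and 1 fall of this list for high against low, with HSD17B7, an enzyme of oestrogen and cholesterol synthesis, among the rises (0.31, edgeR adjusted p = 0.0246). Of 43 other carbonyl, aldehyde and polyol enzymes 32 were tested. KHK, which phosphorylates fructose, was the only call of the unblocked edgeR test over the 8 comparisons: it fell for high against low, at 38.7 ± 1.58 CPM at the high concentrations and 46.4 ± 3.43 CPM at the low ones (-0.26, edgeR adjusted p = 0.0412). In that comparison 10 of the list and 16.3% of all genes had an unadjusted p under 0.05, DESeq2 called 2 rises and 3 falls, and limma-voom called 1 fall. Against DMSO, DESeq2 called 1 rise at 250 µM TCEP, 2 rises and 2 falls at 25 µM TCEP, and 4 rises and 1 fall at 2.5 µM TCIPP. It also called 3 falls for TCIPP over TCEP at 25 µM, and limma-voom called 1 rise at 2.5 µM TCIPP against DMSO. With the block 5 of that list rose and 4 fell for high against low, PTGR1, a reductase of prostaglandins and alkenals, among the rises (0.33, edgeR adjusted p = 0.00126).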

How the data were processed

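The 15 libraries were stranded, paired-end RNA-seq libraries of HepG2 cells. Per the file headers, the deposited tables hold whole-number read counts per gene (total and unique exon, intron and gene reads) and RPKM values (reads scaled to exon length and mapped reads). Per the labels, reads were aligned and annotated on human GRCh37 with the CLC Genomics Workbench, and the design text names a quantile normalization. The exon counts are whole numbers with library totals of 5353963 to 26771751. They were treated as raw counts, and whether that normalization had changed them was not tested. The deposited RPKM values were used only for levels between genes. The aligner's settings for reads with several sites are not given in the sources used here.

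Total exon reads were tested with the quasi-likelihood test of edgeR 4.0.16 in R 4.3.3, with TMM scaling, filterByExpr and all 15 libraries in a joint fit. P-values were adjusted by Benjamini-Hochberg over all 12567 genes tested, and a call is an adjusted p under 0.05. CPM are TMM-scaled, errors are SD over the libraries of a group for levels and SE for fold changes, and intervals are at 95%. The fit was tested on simulated counts without an effect of the replicate number. Their spread followed the trend with expression level and not the spread of each gene. There it recovered 99% of log2 changes of 1 and 100% of those of 2, with 5 false calls among 12454 genes. The members' levels moved with the replicate number, so these rates do not carry over to them. For other genes the rates leave out the spread of each gene.

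The members, lists and tests were chosen with earlier results of these data known. All 8 members are named. Other genes are those with the 4 smallest p of a listed group in a comparison, any call, and the 5 most and 3 genes with the lowest correlation with a mean of at least 10 CPM (Pearson r of log2 CPM, prior count 2).

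Replicate numbers come from the sample titles. Same-numbered libraries were taken as paired where every pair of deviations from the group means had r over 0.1, which held for the 18 pairs among treated groups and not for the 12 pairs with DMSO. Alternatives were DESeq2 1.42.0, limma-voom (limma 3.58.1), other scalings, no filter, unique or gene reads, fewer groups, the block and left-out libraries. Coding sequences are from GENCODE on GRCh37 and promoter windows from RefSeq on GRCh38.p14.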

Additional observations from a re-analysis of the deposited data

How the results depend on the processing

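In the 6 comparisons with a test, 743 of 826 recomputed fold changes of members kept their direction and their side of the threshold, 54 moved past it and 29 changed sign. No member was called in the edgeR fit, so no call could be lost. At the low concentrations against DMSO, which have no test here, 250 of 252 fold changes moved by less than the spread between replicates, the other 2 being AKR1D1 at 25 µM TCEP. Leaving out single libraries moved 39 of 56 fold changes by over 1.5 times. The number of called members was 0 of 7 in the edgeR fit in each of the 6 comparisons with a test. It depended most on the replicate block and on the read filter. Calls of members at the low concentrations against DMSO are left out, since the family was chosen on those contrasts. Comparisons among treated groups also use the low-concentration libraries on which the family was chosen. Their counts of called members are therefore no independent evidence of a difference. With the replicate block the number of called members was 3 in the TCEP step and 3 in the TCIPP step. It was 4 for TCIPP over TCEP at 25 µM and 5 for high against low. A block over the 12 treated libraries alone, added after the data were seen, gave 4, 4, 5 and 5 in the same order. Without the filter on low counts the numbers in these comparisons were 3, 3, 4 and 5. Taking the filter away also changed the calls over the whole table, from 0 to 50 genes at 250 µM TCEP against DMSO. The fit of unique exon reads called 1 member for high against low. The cause was not tested. Leaving out single libraries gave 0 to 2 called members for high against low, and 0 in the other comparisons with a test. For high against low the number was 2 without TCIPP 2.5 µM replicate 1 or TCIPP 25 µM replicate 2. It was 1 without TCEP 250 µM replicate 2. The shares of all genes called in these comparisons without the filter, with unique reads and with left-out libraries are not given here.

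The genes called over the whole table ran from 0 to 50 at 250 µM TCEP (0 in the edgeR fit), 0 to 1037 at 25 µM TCEP (0), 0 to 80 at 25 µM TCIPP (1) and 0 to 941 at 2.5 µM TCIPP (12) against DMSO. With the block they numbered 34, 1037, 47 and 941 in the same order, and 185, 484, 1100 and 1103 in the comparisons that follow. They ran from 0 to 555 in the TCEP step (0), 0 to 948 in the TCIPP step (0), 0 to 2096 for TCIPP over TCEP (5) and 0 to 1804 for high against low (137).

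Changes of sign were found for AKR1A1, AKR1D1 and AKR1B10 near 0. AKR1D1 was at -0.02857 with limma-voom at 25 µM TCIPP against DMSO, and at -0.03729 with limma-voom and -0.1089 with total gene reads in the TCEP step. AKR1A1 was at -0.01256 with total gene reads for TCIPP over TCEP. Leaving out single libraries turned the sign of these log2 fold changes. For AKR1B10 the values ran over -0.2815 to 0.04399 at 25 µM TCIPP against DMSO. For AKR1D1 the values ran over -0.2284 to 0.288 at 25 µM TCIPP against DMSO, -0.1515 to 0.1669 in the TCEP step, -0.4387 to 0.07319 in the TCIPP step, -0.477 to 0.0391 for TCIPP over TCEP and -0.206 to 0.04953 for high against low. For AKR1A1 the values ran over -0.08401 to 0.01126 in the TCIPP step, -0.02493 to 0.05656 for TCIPP over TCEP and -0.009851 to 0.04244 for high against low. Leaving out a replicate number in every group, added after the data were seen, also turned signs: AKR1A1 was at 0.003945 without number 3 at 250 µM TCEP against DMSO, AKR1B10 was at 0.02879 without number 3 at 25 µM TCIPP against DMSO, AKR1D1 was at -0.2209 without number 2 at 25 µM TCIPP against DMSO, AKR1D1 was at -0.1439 without number 2 in the TCEP step, AKR1D1 was at 0.01011 without number 1 for TCIPP over TCEP, AKR1D1 was at 0.0155 without number 1 for high against low and AKR1D1 was at 0.01498 without number 3 for high against low.

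With 3 libraries per group and few reads of AKR1C4 and AKR1D1, small differences in these genes are beyond this depth.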
